A study of Rattus norvegicus with 218 samples.

Results

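Camk2a, Scn2a and Rgs4 are 3 genes found widely in neurons, and their transcripts were followed here in neurons of the rat vagal dorsal motor nucleus (DMV), a brainstem cell group from which vagal motor fibres leave for the heart and gut. They were chosen by gene symbol alone, and they are 3 of 165 genes covered by a panel of 168 assays. Camk2a encodes the alpha subunit of calcium/calmodulin-dependent protein kinase II, an enzyme that turns calcium entry into lasting changes at synapses. Scn2a encodes the pore-forming subunit of the voltage-gated sodium channel Nav1.2, which carries the rising phase of the action potential. Rgs4 encodes a regulator of G protein signalling that speeds GTP hydrolysis by Gi and Gq alpha subunits and so shortens the response to many neurotransmitter receptors. Gapdh, a glycolytic enzyme, and Actb, cytoplasmic beta-actin, are the usual references for such assays.

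Cells came from adult male Sprague Dawley rats in 3 groups. Naive animals (n = 3) had no surgery. Sham animals (n = 4) and RIPC animals (n = 3) both had ketamine/xylazine anaesthesia and surgical exposure of the femoral vessels of both legs. In RIPC animals the femoral artery and vein were tied off and released, while in sham animals they were left untied. Tissue was taken 2.5 hours after reperfusion in RIPC animals, and the labels give the same time for sham animals. Neurons positive for NeuN were cut by laser from left or right DMV, singly or in pools of 2 to 8, and transcripts were measured by multiplex microfluidic RT-qPCR after preamplification. The question of the study was whether RIPC, remote ischemic preconditioning, shifts the transcriptional state of DMV neurons and whether both sides respond alike.

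Each assay gave a threshold cycle (Ct), the PCR cycle at which fluorescence passes a set line. A lower Ct stands for more transcript, 1 cycle is a factor of up to 2 in template, and an assay with no Ct was below detection. Of 213 samples, 186 had a Ct in at least 25% of assays and were kept, 98 single neurons and 88 pools. A kept sample had between 43 and 149 assays with a Ct, with a median of 69 in single neurons and 96 in pools. The 27 samples below the limit were 17 single neurons and 10 pools. Sample numbers were uneven, since naive 3 alone gave 54 of the 98 single neurons while RIPC 3 gave 2 of the 88 pools. Among neuronal genes on the panel that were checked against the cell label, Eno2 had a Ct in 93.9% of single neurons and Map2 in 81.6%. Gfap, an astrocyte gene, had a Ct in 80.6% of single neurons and 77.3% of pools, so the samples were not free of a transcript typical of astrocytes. The study states that each cap was inspected after capture and left out if it held other cells than neurons. Where the Gfap signal came from, and its part in the results, was not tested.

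All 3 genes were detected in most samples. Among single neurons Camk2a had a Ct in 95 of 98 (96.9%, 95% Wilson interval 91.4 to 99.0), Scn2a in 94 of 98 (95.9%, 89.97 to 98.4) and Rgs4 in 85 of 98 (86.7%, 78.6 to 92.1). Gapdh had a Ct in 97 and Actb in 98 of these neurons. The median gene of the panel was seen in 40.8% of single neurons, and by this share Camk2a ranked 5, Scn2a 6 and Rgs4 18 of 165. The intervals cover counting error only.

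In pools the order was different. Scn2a had a Ct in 87 of 88 pools (98.9%, 93.8 to 99.8), Camk2a in 82 (93.2%, 85.9 to 96.8) and Rgs4 in 81 (92.0%, 84.5 to 96.1), beside 88 for Gapdh and 87 for Actb. The median gene was seen in 61.4% of pools, and the ranks of Scn2a, Camk2a and Rgs4 were 3, 17 and 20. In the 85 samples with a Ct in at least 50% of assays, 22 single neurons and 63 pools, every sample held all 3 genes. Values missing among kept samples thus lay in those with fewer assays detected.

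Gaps coincided for Scn2a with Rgs4 in single neurons, where 3 of the 4 neurons without Scn2a also lacked Rgs4. Camk2a shared no gap with either in single neurons, and in pools it shared 1, with Rgs4. All 3 were present in 81 of 98 single neurons and 75 of 88 pools, and no kept sample lacked all 3. Rgs4 was the only one missing in 10 single neurons, Camk2a in 3 and Scn2a in 1. In pools Rgs4 alone was missing in 6, Camk2a alone in 5 and Scn2a alone in 1. Among the samples below the limit, 5 of 17 single neurons and 1 of 10 pools still held all 3 genes, and 3 pools held none.

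**Figure D1:**
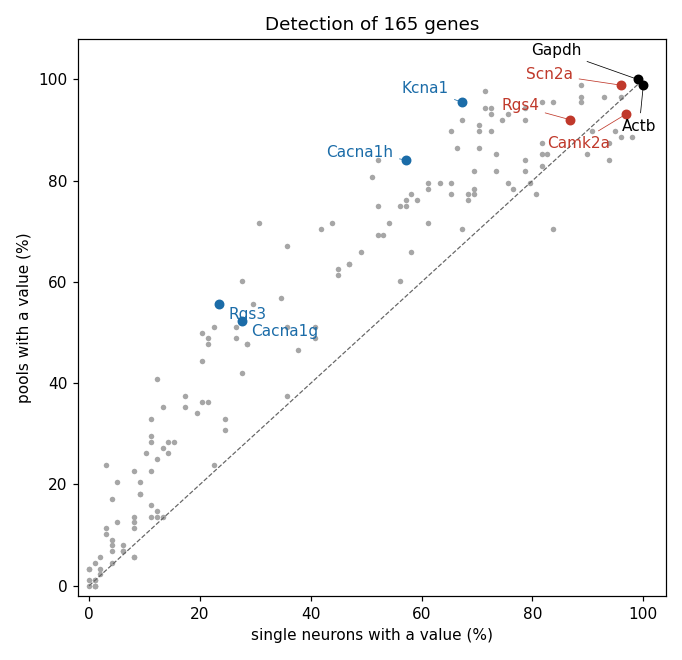
Share of the 98 single neurons (horizontal axis, percent) against the share of the 88 pools (vertical axis, percent) with a Ct, 1 point for each of 165 genes, with equal shares on the dashed line. Camk2a, Scn2a and Rgs4 (red) lie near Gapdh and Actb (black) at the upper right, while Rgs3, Cacna1g, Cacna1h and Kcna1 (blue) lie above the line, as most genes do.

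Where Rgs4 was missing differed from animal to animal. Naive 3 had Rgs4 in 43 of 54 single neurons and naive 2 in 2 of 3, while sham animals together had it in 15 of 16 and RIPC animals in 25 of 25. Most naive single neurons came from 1 rat, so the naive count mainly describes that animal, and no test was made. In pools Rgs4 was least frequent in RIPC 1, with 5 of 8.

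All 6 gaps of Camk2a in pools fell on the right, as the 1 gap of Scn2a fell on the left. Camk2a had a Ct in 47 of 47 left pools and in 35 of 41 right pools. The 6 right pools without it came from RIPC 1, which lacked it in 2 of 4, and from naive 2, sham 1, sham 2 and sham 4, with 1 each. The difference of 14.6 percentage points ranked 4 of 165 genes, against a median of 0.467 points. With 1 difference per animal the left share was higher in 5 of 10 animals and equal in 5, a mean of 11.9 ± 16.03 points (SD). The largest difference, on which the mean rested most, was that of RIPC 1, with 4 of 4 left and 2 of 4 right pools. Its 4 left pools had Camk2a at 21.0 to 23.6 cycles, beside a median of 12.5 over all pools with a Ct. The exact two-sided sign-flip permutation test, run after these values were seen, gave p = 0.0625, the smallest it allows with 5 animals that differ, and 0.188 adjusted over the 3 members. Scn2a was found in 46 of 47 left and 41 of 41 right pools, and Rgs4 in 43 and 38. In single neurons Camk2a was found in 51 of 52 on the left and 44 of 46 on the right.

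Median raw Ct was lower in pools than in single neurons. Median Ct in single neurons and in pools was 14.2 and 12.5 for Camk2a, 12.8 and 11.7 for Scn2a, and 13.6 and 12.2 for Rgs4, beside 9.15 and 7.76 for Gapdh and 12.0 and 10.8 for Actb. From 1 neuron to pools of 5 the median was lower by 1.79 cycles for Camk2a, 1.57 for Scn2a, 1.75 for Rgs4, 1.84 for Gapdh and 1.26 for Actb. With 3, 4 and 5 neurons the Scn2a medians were 11.6, 11.5 and 11.3 cycles, while those of Rgs4 were 11.7, 11.4 and 11.9, with no steady order. Rgs4 stood at 12.9 cycles in the 2 pools of 6 neurons and 13.1 in the 1 pool of 8. A gain of 5 times in template gives 2.32 cycles at full efficiency. Within the 8 animals with both kinds of sample, single neurons had the later mean Ct for Scn2a in 7 animals (difference 1.25 ± 1.49 cycles, SD over animals), for Camk2a in 7 (1.27 ± 3.50) and for Rgs4 in 6 (1.13 ± 1.18). The exception for Camk2a was RIPC 1, at −6.12 cycles, and over the other 7 animals the differences were 2.33 ± 1.97 for Camk2a, 1.70 ± 0.82 for Scn2a and 1.42 ± 0.94 for Rgs4.

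**Figure D2:**
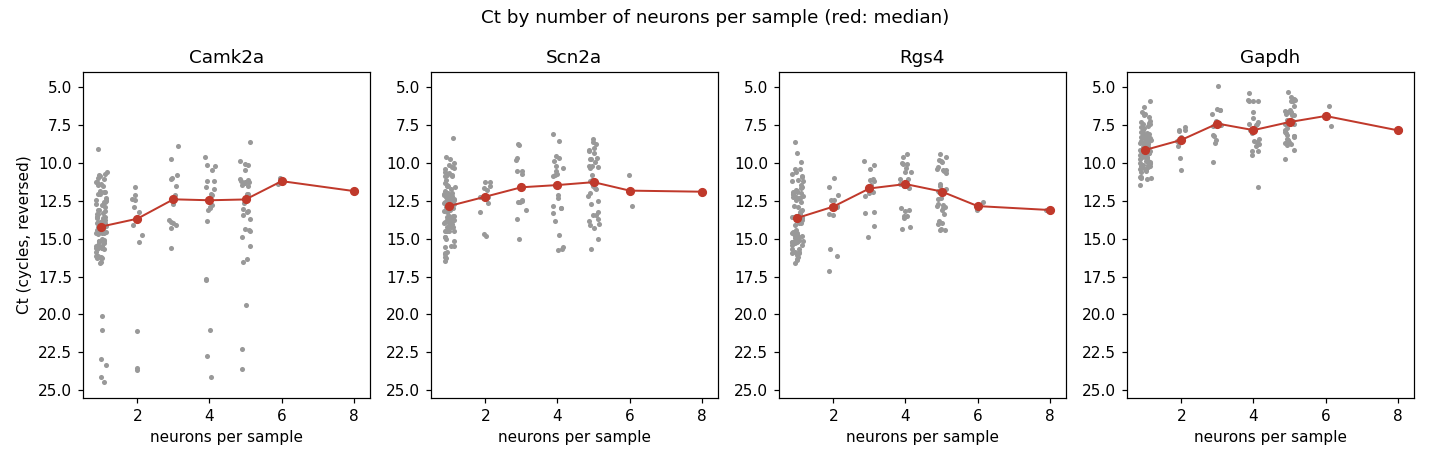
Ct in cycles (axis reversed, more transcript upwards) of Camk2a, Scn2a, Rgs4 and Gapdh in each kept sample (grey points) against the number of neurons in the sample, with medians in red. The Camk2a median is 14.2 with 1 neuron and 12.4 with 5, and some Camk2a points lie apart at 18 cycles or later.

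To compare samples that hold different amounts of RNA, each Ct was subtracted from the median Ct of the 35 genes detected in most samples, so that a higher level stands for more transcript relative to the sample. These 35 genes include the 3 members, Gapdh and Actb. Levels of different genes are not set against each other here, because each assay has its own efficiency. In pools the number of neurons that express a gene and the amount of RNA per neuron cannot be told apart.

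In single neurons the level had a median of 0.31 cycles for Camk2a (−9.79 to 2.58), 1.38 for Scn2a (−0.89 to 3.96) and 0.61 for Rgs4 (−2.60 to 4.47). In pools the medians were 0.49 (−10.2 to 2.56), 1.57 (−0.53 to 4.56) and 0.85 (−2.69 to 4.87). Relative to Gapdh alone, the mean over single neurons was −5.43 ± 2.37 cycles for Camk2a (SD, n = 94), −3.98 ± 0.98 for Scn2a (n = 93) and −4.58 ± 1.54 for Rgs4 (n = 84). Over pools it was −5.96 ± 3.02 (n = 82), −4.06 ± 1.20 (n = 87) and −4.57 ± 1.37 (n = 81). These SDs are over samples, which share animals.

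Relative to Actb, Scn2a and Rgs4 spread more than relative to Gapdh, and Camk2a less. The mean over single neurons was −2.37 ± 2.26 cycles for Camk2a (n = 95), −0.82 ± 1.495 for Scn2a (n = 94) and −1.51 ± 1.98 for Rgs4 (n = 85). Over pools it was −2.33 ± 2.32 (n = 82), −0.26 ± 1.87 (n = 86) and −0.999 ± 2.40 (n = 80). Actb itself varied by 1.51 cycles (SD) against Gapdh in single neurons and by 2.44 in pools.

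The members differed in how evenly they were expressed from sample to sample. Within an animal and a kind of sample, the SD of the level was 0.99 cycles for Scn2a, 1.35 for Rgs4 and 2.07 for Camk2a. Among 37 genes detected in at least 80% of samples these were ranks 8, 24 and 36 from the smallest, and Gapdh had the smallest at 0.77. By the median absolute deviation, which a few extreme samples do not move, the values were 0.63, 0.84 and 0.73 cycles, and the ranks were 13, 28 and 19. The spread of Camk2a therefore rested on a minority of samples.

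That minority had very late Camk2a values. In 15 samples, 6 of the 95 single neurons and 9 of the 82 pools with a Ct, Camk2a appeared at 18 cycles or later, a line drawn after the values were seen, with repeat runs of a neuron averaged. In single neurons no averaged Camk2a value lay between 16.6 and 20.1 cycles, and in pools none lay between 17.7 and 19.4. Scn2a and Rgs4 had no value of 18 or more in any kept sample, and Gapdh had none, while Actb had 1 in single neurons and 4 in pools.

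The late values were not spread evenly over animals. RIPC 1 gave 5 of its 6 pools with a Ct, and RIPC 2 gave 3 of its 10 single neurons. Naive 3 gave 2 of 52 single neurons and 1 of 11 pools, and naive 1, sham 2 and sham 3 gave 1 pool each and naive 2 gave 1 single neuron. Samples with late Camk2a also had fewer assays detected, with a median of 57.5 against 71 in the other single neurons with a value and 51 against 100 in pools. Scn2a was later in them too, at a median of 14.6 cycles against 12.7 in single neurons and 14.7 against 11.2 in pools. Actb was later by more than Scn2a, at 15.1 against 11.9 cycles in single neurons and 15.0 against 10.5 in pools. Gapdh differed less than either, at 10.1 against 9.06 cycles in single neurons and 8.77 against 7.45 in pools. The part of sample quality in the late values was not tested.

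Repeat runs of 5 single neurons bear on how firm a late value is. In 1 neuron of naive 3 Camk2a came at 20.9 cycles in the first run and 12.1 in the second, with Scn2a at 14.5 and 11.2, Rgs4 at 16.3 and 10.9, and Gapdh at 8.46 and 8.52. In 1 neuron of RIPC 2 it came at 18.1 and 12.2, and in another it was late both times, at 21.1 and 20.9. The remaining pairs, both from naive 3, gave 12.4 and 12.2, and 13.96 and 13.7. Late Camk2a was thus seen again in 1 of 3 neurons that had it in a first run, and averaging placed the other two below 18 cycles. Scn2a lacked a Ct in 1 of the 10 runs and Rgs4 in 2.

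RIPC 1 stood apart in Camk2a and needs separate description. Of its 12 pools 8 were kept, and these had Camk2a at 8.86, 19.4, 21.0, 22.7, 23.5 and 23.6 cycles, with 2 pools without a Ct. Its 4 kept single neurons had Camk2a at 11.9, 13.6, 13.8 and 15.6 cycles, inside the usual range. The pool with the early value also had the most assays, 135, while the 8 pools had a median of 56.5.

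Some other genes were low with Camk2a in those pools, while others were not or were higher. The mean level of Camk2a in RIPC 1 pools minus the median of the other 9 animals was −5.49 cycles, rank 2 from the lowest of 98 genes. The same difference was −6.37 for Trpm7, a cation channel with a kinase domain, and −3.76 for Actb. For Eno2, the neuronal enolase, it was −5.20 against 8 other animals. Against 9 animals again, it was −0.58 for Scn2a (rank 38), 0.08 for Rgs4 (rank 51) and 1.21 for Gapdh (rank 78). Map2, a neuronal gene like Eno2, was at 0.99 (rank 69). At the high end were the receptor genes Npr3 (3.56) and Sstr4 (2.77), each of these 3 genes against 8 other animals. The potassium channel gene Kcnn4 was at 2.62. Gfap, Chat and Map2 each had a Ct in 2 of the 8 pools. The cause was not tested.

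**Figure D3:**
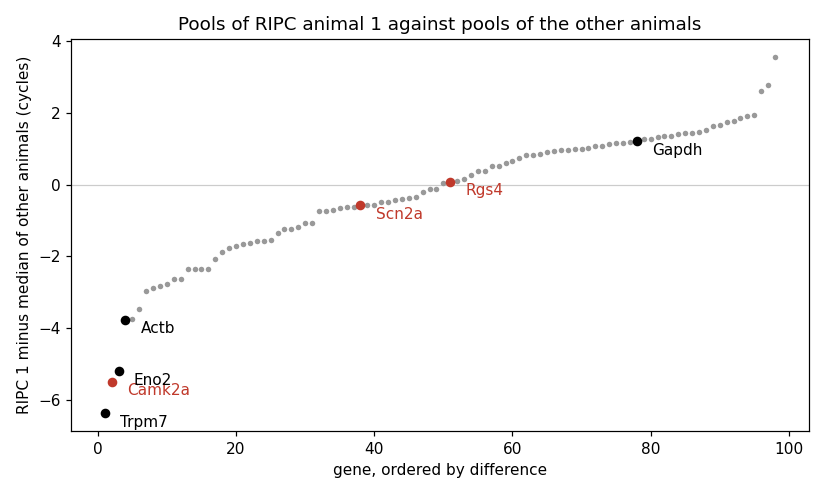
Mean pool level in RIPC 1 minus the median of the other animals, in cycles (vertical axis), for 98 genes ordered by this difference (horizontal axis). Trpm7, Camk2a, Eno2 and Actb are at the low end, with Camk2a at −5.49, while Scn2a at −0.58 and Rgs4 at 0.08 lie near the middle.

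Treatment was compared on pools, with 1 mean per animal. For Camk2a the animal means were −2.18, −0.19 and −0.41 cycles in naive, 1.39, −0.31, −0.45 and 0.39 in sham, and −5.81, 1.00 and −0.53 in RIPC animals. The groups overlapped, and the low end was RIPC 1. For Scn2a they were 1.24, 1.32 and 1.55 in naive, 1.50, 1.16, 1.57 and 1.96 in sham, and 0.97, 1.95 and 1.94 in RIPC animals. All 10 animals lay within 1 cycle of each other. For Rgs4 they were 3.34, 1.58 and 0.40 in naive, 1.24, 0.35, 1.44 and 0.81 in sham, and 1.16, 0.94 and 1.08 in RIPC animals. The high value, naive 1, rested on 2 pools with a Ct.

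**Figure D4:**
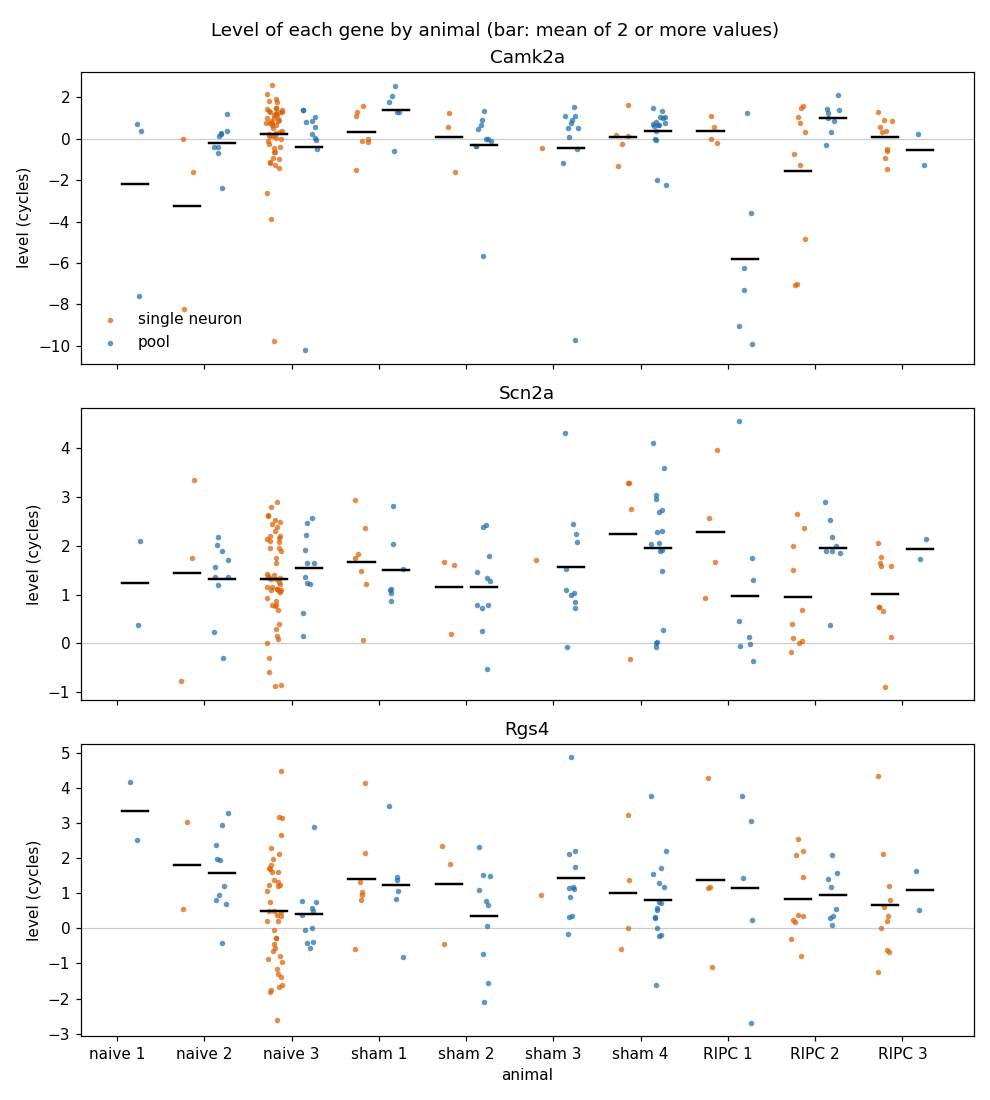
Level in cycles relative to the median of 35 genes for Camk2a, Scn2a and Rgs4 by animal, 1 point per single neuron (orange) or pool (blue), with a bar at each mean of 2 or more values. The animals overlap for each gene, and the Camk2a bar of RIPC 1 pools at −5.81 cycles is the lowest.

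No member passed the test in any treatment contrast. Of 99 genes tested for level with limma over animals, 0 passed at adjusted p 0.05 in each contrast (0%), and at an unadjusted p of 0.05 there were 3 in RIPC against sham (3.03%), 4 in RIPC against naive (4.04%) and 0 in sham against naive. None of these was a member.

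Camk2a had the widest interval. RIPC minus sham was −2.03 ± 1.25 cycles (SE, 95% interval −4.73 to 0.66, limma adjusted p = 0.977, exact permutation p = 0.314). Without RIPC 1 the same difference was −0.02. RIPC minus naive was −0.86 ± 1.33 (−3.74 to 2.03), which became 1.16 without RIPC 1, and sham minus naive was 1.18 ± 1.25 (−1.52 to 3.88). Their exact permutation p-values were 0.8 and 0.257. The naive mean in both held naive 1 at −2.18 cycles, from 3 pools with a Ct, 1 of them at 18 cycles or later.

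Scn2a had the narrowest intervals of the 3. RIPC minus sham was 0.07 ± 0.49 cycles (−0.99 to 1.14), RIPC minus naive 0.25 ± 0.53 (−0.89 to 1.38) and sham minus naive 0.17 ± 0.49 (−0.89 to 1.24). Leaving out RIPC 1 gave 0.40 for RIPC minus sham and 0.57 for RIPC minus naive. Exact permutation p-values were 0.857, 0.4 and 0.486. Differences of more than 1.38 cycles in either direction lay outside all 3 intervals.

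Rgs4 differed mainly through naive 1. RIPC minus sham was 0.10 ± 0.65 cycles (−1.31 to 1.51), RIPC minus naive −0.71 ± 0.70 (−2.22 to 0.80) and sham minus naive −0.81 ± 0.65 (−2.23 to 0.60). Without naive 1 the last pair of differences was 0.07 and −0.03. Exact permutation p-values were 0.8, 0.7 and 0.371. The design allows no exact p below 0.0286 with 3 against 4 animals and none below 0.1 with 3 against 3.

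Gapdh and Actb were also taken as references of their own. Relative to Gapdh, Camk2a pools averaged −6.40 ± 0.83 cycles in naive, −5.30 ± 0.85 in sham and −7.05 ± 4.06 in RIPC animals (SD over 3, 4 and 3 animals). Scn2a averaged −4.03 ± 0.19, −4.05 ± 0.46 and −3.86 ± 1.53, and Rgs4 −3.67 ± 1.74, −4.58 ± 0.64 and −4.56 ± 1.17. Without RIPC 1 the RIPC means were −4.71 for Camk2a, −3.00 for Scn2a and −3.93 for Rgs4. The order of the groups for Camk2a was thus sham, naive, RIPC with RIPC 1 and RIPC, sham, naive without it. Sham minus naive, at 1.11 ± 1.42 cycles (SE), did not pass (limma adjusted p = 0.989).

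Relative to Actb, Camk2a averaged −2.39 ± 0.81, −2.02 ± 0.75 and −2.70 ± 1.42 cycles in naive, sham and RIPC animals. Scn2a averaged −0.16 ± 1.24, −0.57 ± 0.16 and 0.68 ± 1.65, and Rgs4 −0.03 ± 2.46, −1.33 ± 0.35 and 0.12 ± 2.29. With RIPC 1 left out the RIPC means were −1.98 for Camk2a, −0.27 for Scn2a and −1.20 for Rgs4, so that the positive Scn2a and Rgs4 means rested on RIPC 1, whose pools were low in Actb.

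The share of an animal's pools with a Ct also gave no call. Of 130 genes tested, 0 passed in each contrast with limma (0%), with 1 at an unadjusted p of 0.05 in RIPC against sham (0.769%), 4 in RIPC against naive (3.08%) and 2 in sham against naive (1.54%). Camk2a averaged 96.7% of pools in naive, 92.7% in sham and 91.7% in RIPC animals, and Rgs4 88.9%, 92.7% and 87.5%. The largest of the 6 member differences was −5.19 points, for Rgs4 in RIPC against sham (95% interval −34.8 to 24.5). Leaving out RIPC 1, RIPC minus sham was 7.31 points for both genes, and RIPC minus naive was 3.33 for Camk2a and 11.1 for Rgs4. Scn2a was outside the range of 10% to 95% set for this test.

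Left and right were compared inside each of 9 animals, with single neurons and pools joined. The level of Camk2a was −0.43 ± 0.60 cycles on the left relative to the right (SE, 95% interval −1.74 to 0.87, higher on the left in 3 of 9 animals), that of Scn2a −0.05 ± 0.22 (−0.53 to 0.43, 5 of 9) and that of Rgs4 −0.23 ± 0.37 (−1.03 to 0.57, 4 of 9). Exact sign-flip permutation p-values were 0.586, 0.777 and 0.785. Of 113 genes, 0 passed with limma (0%) and 3 had an unadjusted p under 0.05 (2.65%), none of them a member.

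RIPC 1 was again the animal at the edge. Its Camk2a level was −5.33 cycles on the left and −0.36 on the right, and its Rgs4 level was −0.88 and 2.33. Without it the differences between sides were 0.13, 0.06 and 0.14 cycles for Camk2a, Scn2a and Rgs4. No difference between treatments in the left-right difference was called for any of 90 genes by limma's F test (0%, with 2 at an unadjusted p of 0.05, 2.22%), and the adjusted p was 0.969 for each of the 3 members.

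No difference in level between single neurons and pools of the same animals was called for any member. Single minus pool was 0.09 ± 0.85 cycles for Camk2a (SE over 8 animals, 95% interval −1.80 to 1.97, higher in 4 of 8), −0.03 ± 0.29 for Scn2a (−0.67 to 0.60, 4 of 8) and 0.15 ± 0.22 for Rgs4 (−0.33 to 0.64, 6 of 8). Exact sign-flip permutation p-values were 0.914, 0.945 and 0.313. Without RIPC 1 the Camk2a difference was −0.78. Of 89 genes, 0 passed with limma (0%), with 8 at an unadjusted p of 0.05 (8.99%), none of them a member.

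The share of samples with a Ct was called different between the kinds of sample for other genes. Of 133 genes, 23 were found in fewer single neurons than pools (17.3%) and 0 in more by limma. At the stricter limit of 50% of assays that the study's methods state, 0 of 110 passed. There were 8 at an unadjusted p of 0.05, 4 of them lower in single neurons. Only naive 3 and RIPC 3 then had at least 2 samples of each kind, too few animals to decide whether the 23 calls hold. Leaving out 1 animal moved the count of 23 to between 5, without sham 1, and 56, without RIPC 1. Rgs4 was not among the 23, at −0.87 percentage points (SE 8.46, 95% interval −18.7 to 17.0, limma adjusted p = 0.928). Camk2a and Scn2a were found too widely for this test.

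Genes that work beside the members were read by lists of relatives. Of 5 assayed genes found widely in neurons (the 3 members, Map2 and Eno2), 0 passed in any contrast. Their median level difference was 0.07 cycles in RIPC minus sham against −0.13 over the 99 genes, −0.71 in RIPC minus naive against −0.19, and 0.17 in sham minus naive against 0.02. The RIPC minus naive median, which is the value of Rgs4, was 0.57 without RIPC 1 and 0.07 without naive 1, and the RIPC minus sham median lay between −0.10 and 0.08 with 1 animal left out. Sodium channels had 2 assayed members, Scn1a and Scn2a, and 0 passed. Among 5 assayed Rgs and Grk genes, which damp G protein signalling or the receptors themselves, 1 passed, in the share of single neurons against pools, where 4 were tested and 17.3% of all genes passed. It was Rgs3, found in 23.5% of single neurons and 55.7% of pools, a difference of −27.9 points within animals. With 1 animal left out Rgs3 was called without RIPC 1 or without sham 2, and in none of the other 6 fits.

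Calcium channels and calcium signalling genes included Camk2a. Of 12 assayed, 10 were tested for share in single neurons against pools and 3 passed, where 17.3% of all genes did. None passed in another contrast. At a limit of 50% of assays 0 genes were called, but only naive 3 and RIPC 3 could enter. That fit therefore cannot tell whether these calls and that of Rgs3 hold. With 1 animal left out, 5 (without sham 1) to 56 genes (without RIPC 1) were called, against 23. The T-type calcium channel genes Cacna1g and Cacna1h differed by −26.8 and −32.4 points, single neurons minus pools, and Kcna1, a potassium channel gene kept in this list, by −39.2 points. Cacna1h and Kcna1 were called in every fit with 1 animal left out. Cacna1g was not called without RIPC 2, naive 3, sham 1 or sham 4. Camk2a, outside the range of this test, was found in 96.9% of single neurons and 93.2% of pools. Of 5 assayed reference genes (Gapdh, Actb, Ldha, Rpl19 and Eno2) 0 passed in any contrast.

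Correlation among the members was higher in raw Ct than in level. In single neurons Pearson's r of Ct was 0.56 for Camk2a with Scn2a (rho 0.62, n = 91), 0.30 for Camk2a with Rgs4 (rho 0.30, n = 82) and 0.57 for Scn2a with Rgs4 (rho 0.56, n = 84). The median pair of genes had 0.41. In pools the values were 0.73 (rho 0.80, n = 81), 0.55 (rho 0.51, n = 76) and 0.70 (rho 0.72, n = 80), against a median pair of 0.36. The samples of a correlation share animals and differ in total RNA, so the values are descriptions.

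On the level scale, with the members left out of the reference, the same pairs had lower values. Single neurons gave 0.10 for Camk2a with Scn2a, −0.14 for Camk2a with Rgs4 and 0.27 for Scn2a with Rgs4, where the median pair had 0.02. Pools gave 0.44, 0.12 and 0.38, where the median pair had 0.01. The pairs with Scn2a were above the median pair in both kinds of sample. Without RIPC 1 the pools gave 0.27, −0.01 and 0.30, and without samples of late Camk2a the pairs with Camk2a gave 0.29 and −0.29.

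**Figure D5:**
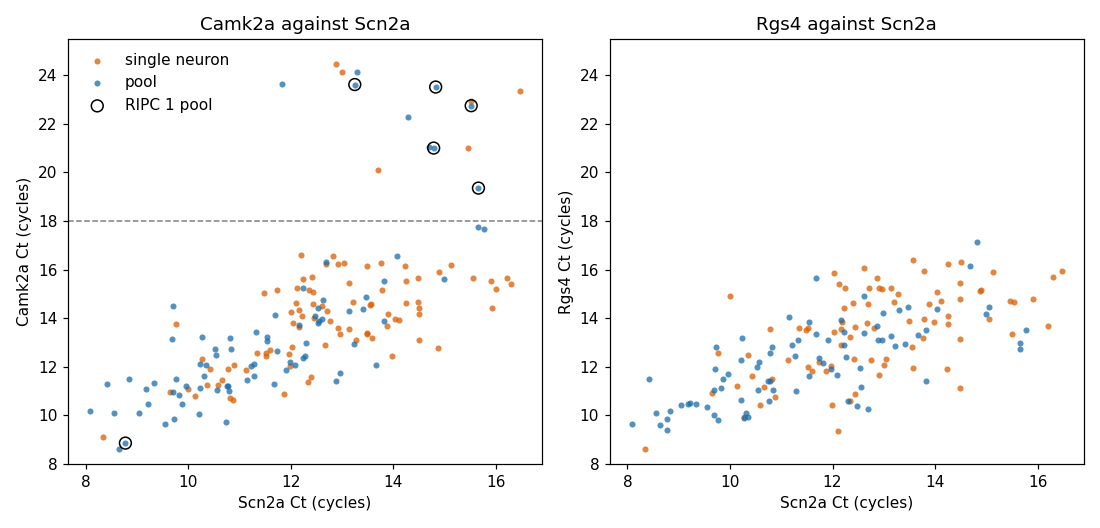
Ct in cycles of Camk2a (left) and Rgs4 (right) against Scn2a, 1 point per kept sample, with single neurons in orange, pools in blue and RIPC 1 pools circled. Rgs4 follows Scn2a in 1 cloud (r 0.57 in single neurons and 0.70 in pools), while Camk2a values above the dashed line at 18 cycles lie apart.

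By treatment the correlations varied with few samples. In pools the level of Camk2a with Scn2a gave r = 0.50 in naive (n = 22), 0.12 in sham (n = 43) and 0.85 in RIPC animals (n = 16), the last falling to 0.41 without the late Camk2a values. Scn2a with Rgs4 gave 0.09, 0.39 and 0.57 (n = 22, 43 and 15), and Camk2a with Rgs4 gave 0.16, −0.09 and 0.53 (n = 22, 41 and 13). Without the late values the last pair gave −0.30, −0.29 and −0.16. In the 10 RIPC pools of RIPC 2 and RIPC 3, r was 0.48 for Camk2a with Scn2a, −0.11 for Camk2a with Rgs4 and −0.17 for Scn2a with Rgs4. In single neurons Scn2a with Rgs4 gave 0.34 in naive (n = 45), 0.30 in sham (n = 15) and 0.13 in RIPC animals (n = 24). The differences between treatments were not tested.

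By side, the level correlation of Scn2a with Rgs4 was 0.25 in left and 0.31 in right single neurons (n = 45 and 39), and 0.36 in left and 0.41 in right pools (n = 42 and 38), or 0.24 and 0.36 in pools without RIPC 1. Camk2a with Scn2a was 0.18 in left and 0.00112 in right single neurons (n = 50 and 41), or 0.17 and 0.16 without the late Camk2a values. In pools it was 0.53 and 0.27 (n = 46 and 35), or 0.32 and 0.22 without RIPC 1. Without the late Camk2a values the pools gave 0.26 and 0.34, so the order of the sides turned. Camk2a with Rgs4 was −0.33 in left and 0.07 in right single neurons (n = 44 and 38), or −0.22 and −0.04 without the late values. In pools it was 0.38 and −0.28 (n = 43 and 33). The left value in pools was −0.37 without the late Camk2a values and 0.15 without RIPC 1.

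Against the references, the level correlations differed between kinds of sample and with RIPC 1. Scn2a with Gapdh had r of Ct of 0.81 in single neurons (n = 93), and on the level scale 0.49 in single neurons and 0.34 in pools. By treatment the level r in single neurons was 0.28 in naive (n = 54), 0.55 in sham (n = 15) and 0.75 in RIPC animals (n = 24), not tested. Camk2a with Actb had level r of 0.60 in pools (n = 82), 0.39 in pools without RIPC 1, and 0.18 in single neurons (n = 95). Without the late Camk2a values the same sets gave 0.61, 0.61 and 0.10, so the fall without RIPC 1 was seen only with those values in. Scn2a with Actb had 0.49 in pools (n = 86), 0.47 without RIPC 1, and 0.22 in single neurons (n = 94). Camk2a with Gapdh was −0.14 and −0.06, and Rgs4 with Actb 0.01 and −0.02, in single neurons and pools. Rgs4 with Gapdh was 0.28 and 0.37. Pools of the other animals gave 0.29 for Scn2a with Gapdh, −0.03 for Camk2a with Gapdh, −0.17 for Rgs4 with Actb and 0.27 for Rgs4 with Gapdh.

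For each member the 3 most alike genes were found among 103 genes, by Pearson's r of level after the mean of each animal and kind of sample was taken off. Scn2a was most like Trpm7 (r = 0.60, n = 154), the lactate dehydrogenase gene Ldha (0.58, n = 180) and the heat shock factor gene Hsf2 (0.47, n = 133). Rgs4 was most like Rgs3 (0.49, n = 68), Hsf2 (0.44, n = 128) and the immediate early gene Jun (0.44, n = 157). Camk2a was most like Gabrb1, a GABA-A receptor subunit gene (0.41, n = 158), Tacr1, the substance P receptor gene (0.37, n = 64), and Ache, acetylcholinesterase (0.35, n = 160). The median r over the 103 genes was 0.04, 0.01 and −0.03. None of the members was among the nearest of another, since Scn2a with Rgs4 had 0.26 and Scn2a with Camk2a 0.10.

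Single neurons with and without Chat, the enzyme of acetylcholine synthesis and marker of vagal motor neurons, were also set side by side. In naive 3, the animal with most neurons, the median Camk2a level was 0.87 cycles in 37 neurons with Chat and −0.45 in 15 without. With minus without was 1.31 cycles there, 1.28 in sham 1, 0.77 in sham 4, 7.80 in RIPC 2 and 1.17 in RIPC 3, so Camk2a was higher beside Chat in 5 of 5 animals that allowed the comparison. The RIPC 2 value included its late Camk2a neurons. A split of naive 3 by the GABA synthesis genes Gad1 or Gad2 also parted the Camk2a medians. They were 0.008 cycles in 21 neurons with either gene and 0.85 in 31 with neither, so a difference was not particular to the split by Chat.

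Rgs4 ran the other way and Scn2a showed no single direction. Rgs4 was lower beside Chat in 4 of 4 animals, by −0.35 cycles in naive 3, −0.39 in sham 1, −1.83 in RIPC 2 and −0.996 in RIPC 3. Scn2a differed by 0.16, −0.21, 0.30 and 1.22 cycles in the same animals. Neurons of naive 3 with Chat had a median of 73 assays detected against 67 without. These are medians over 2 to 37 neurons in each animal, they were picked after other results of these data were known, and no test was made.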

How the data were processed

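Per the labels and the study's methods, NeuN-stained neurons were laser-captured and lysed, and complementary DNA was preamplified and assayed with EvaGreen by microfluidic RT-qPCR. The deposited values are raw Ct, without normalization. In the study Ct was then centred on each sample's median. The sources used here do not say which chip held which sample.

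Repeat runs of 5 samples were averaged. Samples with a Ct in at least 25% of assays were kept. The study's methods state a stricter limit of 50%, an alternative here, while 25% keeps the number of columns that the study states. Level is the median Ct of 35 genes minus the gene's Ct. Each animal gave 1 mean per gene, over at least 2 detected samples. All genes that met these limits were fitted in R 4.3.3 by limma 3.58.1, with two-sided p-values adjusted by Benjamini-Hochberg (threshold 0.05). The layout was also run on simulated data, drawn independently for each gene and animal, so genes that move together in 1 animal were not covered. For the members, exact permutation over animals was added. Shares were tested for genes found in 10% to 95% of samples.

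The members, gene lists and comparisons were chosen with earlier results of these data known. Named genes were the members, Gapdh, Actb, each member's 3 most alike genes among those sharing at least 60 samples with it, and list genes that passed. Other assayed list genes (Map2, Eno2, Scn1a, Ldha and Rpl19) and the cell type marker Gfap were also named. Trpm7, Eno2, Map2, Npr3, Sstr4 and Kcnn4 in RIPC 1 pools, Chat, and Gad1 or Gad2 were chosen after their values were seen. Alternatives covered the sample limit, reference, undetected values, repeat runs, sample type, share scale, each animal left out and an animal number block. The animal median and leaving out late Camk2a values were chosen after seeing the data.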

Additional observations from a re-analysis of the deposited data

Results flagged for a closer look

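RIPC 1 was far from the other animals in 3 of 18 sets of animal values examined for a single outlying animal, and chance alone flags about 1 set in 20. Its left minus right Rgs4 level was −3.20 cycles, where the nearest of the other animals was at −0.43 (9 animals). Its single minus pool level was 6.16 cycles for Camk2a, where the nearest was at 0.61, and 3.70 cycles for Actb, where the nearest was at 0.67 (8 animals each). All 3 values involve its pools, of which 8 of 12 were kept, with a median of 56.5 assays detected. The part of that in these values was not tested.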

How the results depend on the processing

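No member passed the test under any alternative, but many of the small differences changed sign, and the causes were not tested. The count of genes called was 1 instead of 0 for level in RIPC against naive and in RIPC against sham, both with animal means from 1 detected sample and with the animal median (chosen after seeing the data), and 1 for share in RIPC against naive with a limit of 50% of assays. None was a member. For share in single neurons against pools it was 0 at 50%, and 5 to 56 when 1 animal was left out. The level of single neurons against pools could not be fitted at 50%.

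Left minus right became 0.25 at 50% and 0.72 with undetected values set 1 cycle above the highest Ct for Camk2a. For Scn2a it became 0.13 at 50%, 0.0806 with no limit, 0.0694 against Gapdh, 0.0864 against Actb and 0.0348 with undetected values set. For Rgs4 it became 0.31 at 50%. RIPC minus naive became 0.45 for Camk2a at 50%, −0.0596 for Scn2a with the animal median and 0.15 for Rgs4 against Actb. RIPC minus sham became −0.26 for Scn2a and −0.0790 for Rgs4 with single neurons and pools together, −0.0022 for Scn2a with the median, and −0.16 for Rgs4 with undetected values set. Sham minus naive of Scn2a became −0.0240 against Gapdh, −0.41 against Actb and −0.0574 with the median. Single minus pool became −0.0913 with no limit, −0.40 against Actb and −0.32 without late values (chosen after seeing the data) for Camk2a, 0.19 with the median for Scn2a, and −0.25 against Actb and −0.0251 with the median for Rgs4.

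On the arcsine scale of shares, Camk2a became 0.0602 in RIPC minus sham, and Rgs4 became −0.0296 in sham minus naive, 0.0150 in RIPC minus sham and 0.0063 in single minus pool. The Camk2a share in sham minus naive became 4.59 points with no limit, and the Rgs4 share in RIPC minus naive 10.98 points with single neurons and pools together.

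With each animal left out in turn, left minus right ranged from −0.82 to 0.13 for Camk2a, −0.14 to 0.0587 for Scn2a and −0.35 to 0.14 for Rgs4. RIPC minus naive ranged from −2.25 to 1.16 for Camk2a and −1.40 to 0.0713 for Rgs4. RIPC minus sham ranged from −0.0921 to 0.40 for Scn2a and −0.10 to 0.26 for Rgs4. Single minus pool ranged from −0.78 to 0.54 for Camk2a and −0.23 to 0.10 for Scn2a. Shares of Rgs4 ranged from −7.31 to 9.35 points in sham minus naive, −12.5 to 11.1 in RIPC minus naive, −11.4 to 7.31 in RIPC minus sham and −6.35 to 3.77 in single minus pool. Shares of Camk2a ranged from −9.17 to 3.33 in RIPC minus naive and −5.19 to 7.31 in RIPC minus sham.

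Animals with the same number deviated together with r from −0.70 to 0.34 over 48 genes in 9 pairs, so the numbers were not taken to pair them. With animal number as a replicate block, 0 genes were called in each treatment contrast, and Camk2a in RIPC minus sham was −1.99 cycles. The number of animals and of assays detected limits precision.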
